A study of Mus musculus with 9 samples.

Results

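The Hox genes were followed here along their 4 chromosomal clusters in the terminal colon of mouse embryos. All genes whose platform symbol was Hox, a cluster letter from a to d and a number were taken. Each gene was read from its brightest probe set that named no other gene. In this way 33 Hox genes were measured, of 18193 genes measured in all. The reference annotation listed 39 mouse Hox genes, and those without such a probe set were not analysed here. The 33 genes comprised 9 of the HoxA cluster on chromosome 6, 9 of HoxB on chromosome 11, 7 of HoxC on chromosome 15 and 8 of HoxD on chromosome 2.

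Hox genes encode homeodomain transcription factors. Genes at the low-numbered end of each cluster are switched on earlier and further forward in the embryo than genes at the high-numbered end, and genes with the same number in different clusters, called paralogues, descend from one ancestral gene. In the embryonic gut the genes are used mainly by the mesoderm, with partly nested limits along its length, and the highest-numbered paralogues mark the hindgut and cloacal region.

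The study set wild type hindgut against hindgut of embryos that lack the endothelin receptor Ednrb, a receptor that crest cells need to colonise the distal bowel. Total RNA of the dissected terminal colon was hybridised to Affymetrix MOE430 version 2 arrays, 3 arrays per group and 9 in all. The stage is embryonic day 14 in the labels and 14.5 days in the series text. Ednrb null embryos were homozygous for an Ednrb lacZ allele. Ednrb NCC null embryos carried the mutation called FLEX in the labels, which place it in NCC cells. The labels do not spell out that abbreviation, and the driver of the deletion is not given in the sources used here. The wild type arrays are named 1B, 1C and 1D, the Ednrb null arrays 29, 37 and 41, and the Ednrb NCC null arrays 2, 5 and 6. Whether an array stands for a single embryo or a pool is not stated, so the p-values below measure the spread between these arrays, which may in part be technical. In dissected tissue, fewer cells of a type and less RNA per cell cannot be told apart.

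Upstream sequence is shown for 4 genes that moved in the comparisons below, 2 that were lower in mutants and 2 that were higher in Ednrb null hindgut. The sequences were taken from RefSeq on GRCm38.p6, as the 250 bases before the annotated gene start. The table held a promoter for 22 of the 39 Hox genes. Hoxa3, Hoxa4, Hoxb5 and Hoxb9 also moved and are named only. Capitals mark matches, on either strand, to TTTAT, the core letters bound by CDX factors. Searches for TGATTNAT, a composite PBX and HOX motif, and for TGACAG, a MEIS motif, are included in the capitals but found no match in these 4 windows. Each sequence is written 5′ to 3′ in the direction of the gene.
Hoxa5, chr6:52204588-52204837, minus strand: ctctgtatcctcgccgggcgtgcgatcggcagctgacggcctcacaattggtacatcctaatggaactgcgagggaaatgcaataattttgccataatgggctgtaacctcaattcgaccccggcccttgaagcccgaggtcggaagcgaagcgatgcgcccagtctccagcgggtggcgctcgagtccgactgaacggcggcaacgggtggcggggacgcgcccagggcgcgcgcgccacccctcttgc
Hoxd3, chr2:74711743-74711992, plus strand: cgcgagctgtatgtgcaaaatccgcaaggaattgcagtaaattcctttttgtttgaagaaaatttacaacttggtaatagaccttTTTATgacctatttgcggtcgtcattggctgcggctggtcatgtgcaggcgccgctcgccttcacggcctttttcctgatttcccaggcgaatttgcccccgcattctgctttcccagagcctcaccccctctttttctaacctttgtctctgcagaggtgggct
Hoxd11, chr2:74679308-74679557, plus strand: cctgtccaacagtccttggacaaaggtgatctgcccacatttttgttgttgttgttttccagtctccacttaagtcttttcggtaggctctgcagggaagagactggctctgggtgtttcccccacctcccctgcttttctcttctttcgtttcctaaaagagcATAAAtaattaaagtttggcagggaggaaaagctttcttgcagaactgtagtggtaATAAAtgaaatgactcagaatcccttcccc
Hoxd12, chr2:74674763-74675012, plus strand: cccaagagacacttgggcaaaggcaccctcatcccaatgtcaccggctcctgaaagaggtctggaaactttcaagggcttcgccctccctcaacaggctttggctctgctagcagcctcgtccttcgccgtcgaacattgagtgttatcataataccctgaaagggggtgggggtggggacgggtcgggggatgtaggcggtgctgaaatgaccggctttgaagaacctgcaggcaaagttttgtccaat

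The Hoxd3 window held 1 match to TTTAT, which begins 165 bases before the gene start. The Hoxd11 window held 2 matches on the antisense strand, where the gene strand reads ATAAA, and the Hoxa5 and Hoxd12 windows held none. Of 32851 promoter windows of this length, 37.3% held TTTAT on either strand, against 37.5% of the 24 Hox windows in the table. TGATTNAT was in 2.82% of all windows and 8.33% of the Hox windows, that is 2 of 24, and TGACAG was in 15.9% and 8.33%. A match is a run of letters, not a measured binding site.

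Values are the deposited RMA intensities on a log2 scale, so a difference of 1 is a doubling. A gene was called when its adjusted p in limma's moderated test was under 0.05 after Benjamini-Hochberg adjustment over all 18193 genes. A probe set was counted as above background in a group when, on each array of that group, it exceeded the 95th percentile of 38 olfactory receptor genes, which lay between 5.88 and 6.12. Levels of different genes come from different probes and are not ranked against each other. The correlation over all genes was 0.994 to 0.997 between arrays of one group and 0.990 to 0.994 between arrays of different groups. Ednrb itself read 11.08, 10.95 and 11.05 in wild type, 9.23, 9.40 and 8.77 in Ednrb null and 11.15, 11.32 and 11.04 in Ednrb NCC null hindgut. It was 3.71-fold lower in the Ednrb null than in the wild type (limma log2 difference -1.89, SE 0.14, adjusted p = 3.91e-05), and the Ednrb NCC null differed from wild type by 0.15 (adjusted p = 0.653). Where the probe lies relative to the part deleted in the NCC mutant is not given in the sources used here, so Ednrb does not check that label. The receptor gene Ret, a marker of enteric crest cells, fell in both mutants, with measured log2 differences from wild type of -3.23 in the Ednrb null, where array 29 was at background, and -3.31 in the Ednrb NCC null (adjusted p in limma 0.000562 and 0.000721).

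In wild type terminal colon, 26 of the 33 Hox genes were above background on all 3 arrays. They were 8 of 9 in HoxA, 7 of 9 in HoxB, 4 of 7 in HoxC and 7 of 8 in HoxD. By position, 5 of the 7 anterior genes (numbers 1 to 3), 9 of the 12 central genes (4 to 8) and 12 of the 14 posterior genes (9 to 13) were above background. The 7 that were not were Hoxa13, Hoxb1, Hoxb7, Hoxc5, Hoxc8, Hoxc13 and Hoxd1. Hoxa13 and Hoxc8 exceeded the background on 2 of 3 wild type arrays. A set of 5 genes, Hoxb1, Hoxb7, Hoxc5, Hoxc13 and Hoxd1, reached this mark in no group. In Ednrb null hindgut 24 Hox genes were above background and in Ednrb NCC null hindgut 26, and 23 were so in all 3 groups.

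**Figure D1:**
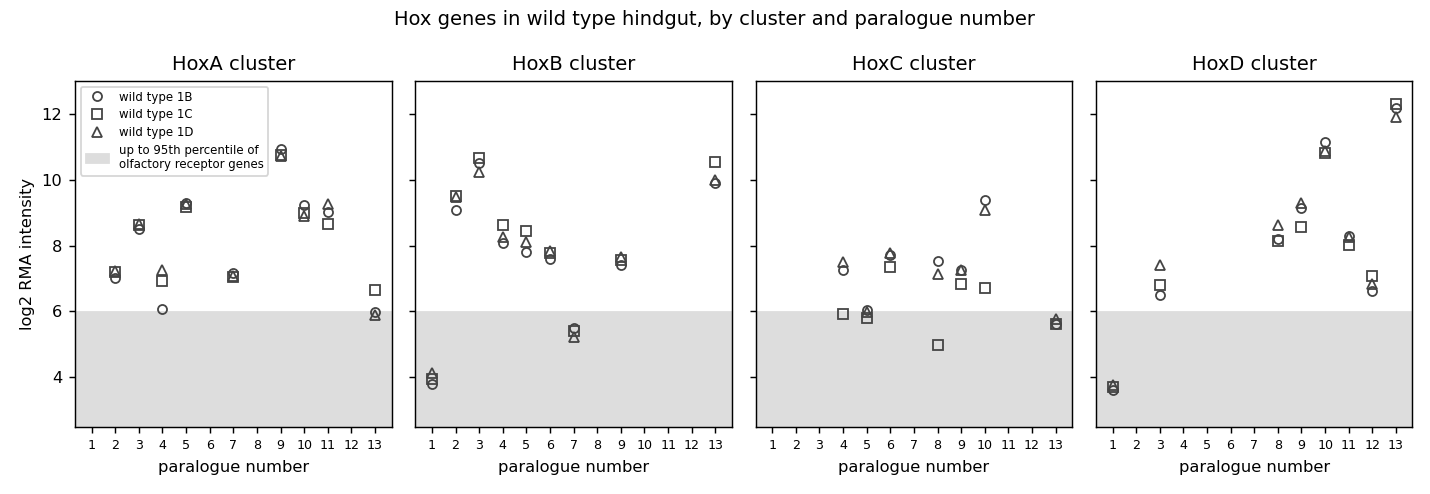
Log2 RMA intensity of each Hox gene on the wild type arrays 1B, 1C and 1D, with one panel per cluster and paralogue number on the horizontal axis. The grey band reaches up to the 95th percentile of olfactory receptor genes, at the highest of the 3 wild type arrays, and a gap means that the gene is not shown; 26 genes lie above the background on all 3 arrays, and Hoxc8 and Hoxc10 show the widest scatter.

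HoxA genes act in gut and limb mesoderm, and Hoxa5 in particular is used in the mesoderm of lung and gut. In wild type hindgut, Hoxa2 read 7.15 ± 0.12 (SD, n = 3 for each wild type value here), Hoxa3 8.60 ± 0.07, Hoxa4 6.75 ± 0.61 and Hoxa5 9.24 ± 0.05. Hoxa7 read 7.09 ± 0.06, Hoxa9 10.80 ± 0.12, Hoxa10 9.04 ± 0.17 and Hoxa11 8.98 ± 0.31. Hoxa13, needed for the hindgut, genital tubercle and digits, read 6.18 ± 0.41. The HoxA genes were thus measured above background from Hoxa2 to Hoxa11, with Hoxa13 not above it on 1 of the 3 arrays.

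Of HoxB, whose early members pattern the hindbrain and the foregut mesoderm, Hoxb2 read 9.37 ± 0.23, Hoxb3 10.47 ± 0.22 and Hoxb4 8.32 ± 0.28. Hoxb5, which is also used by enteric crest cells, read 8.12 ± 0.31, and Hoxb6 read 7.74 ± 0.13. Hoxb9 read 7.54 ± 0.12 and Hoxb13, a gene of the tail bud and hindgut, 10.14 ± 0.35. Hoxb1, a hindbrain gene, read 3.95 ± 0.16 and Hoxb7 5.37 ± 0.14, both at background. A probe set shared by Hoxb7 and Hoxb8 read 7.06 on average.

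HoxD genes pattern limb, genital and hindgut mesoderm. Hoxd3 read 6.91 ± 0.48, Hoxd8 8.31 ± 0.27, Hoxd9 9.00 ± 0.39 and Hoxd10 10.94 ± 0.17. Hoxd11 read 8.20 ± 0.15, Hoxd12 6.85 ± 0.24 and Hoxd13, which with Hoxa13 marks the end of the gut, 12.12 ± 0.21. Hoxd1 was at background at 3.69 ± 0.07. From Hoxd8 to Hoxd13 every measured HoxD gene was above background on all 9 arrays.

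The HoxC cluster was the least even between wild type arrays. Hoxc10, a gene of the lumbar trunk and hindlimb, read 9.40 and 9.09 on arrays 1B and 1D and 6.70 on 1C. Hoxc8, a trunk gene, read 7.53 and 7.14 on those arrays and 4.97 on 1C. Hoxc4 read 7.25, 5.91 and 7.49 on 1B, 1C and 1D. In each of these genes wild type 1C was the lowest of the 9 arrays and Ednrb null 29 the next lowest. The wild type SD was 1.47 for Hoxc10, 1.38 for Hoxc8 and 0.85 for Hoxc4, above that of 99.9%, 99.9% and 99.5% of all genes, whose median SD was 0.12.

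The other HoxC genes were steadier than these. Hoxc6 read 7.61 ± 0.24 and Hoxc9 7.12 ± 0.24 in wild type, each with an SD above that of 87.1% of all genes. Hoxc9 was also lowest of the 9 arrays on 1C, at 6.84, and next lowest on Ednrb null 29, at 6.90. Hoxc5 and Hoxc13 were not above background. Averaged over the 7 HoxC genes, array 1C lay 0.59 below the mean of the 9 arrays and Ednrb null 29 lay 0.50 below it, while 1B and 1D lay 0.50 and 0.46 above. In the HoxA, HoxB and HoxD clusters array 1C lay 0.11, 0.24 and 0.02 above the 9-array mean, although 1C was also the lowest of the 9 in Hoxa7, Hoxa11 and Hoxd9. The summed level of 12 skeletal muscle genes, 6 of them above background in some group, was lowest on 1C at 9.36 and highest on 1D at 10.30. It was 9.42, 9.42 and 9.80 on Ednrb null 29, 37 and 41. On Ednrb NCC null 2, 5 and 6 it was 9.75, 9.96 and 9.72. Other lists had the same lowest array. The urogenital sum was 9.76 on 1C and next lowest on Ednrb null 29 at 9.81. The macrophage sum was 11.42 on 1C and next lowest on Ednrb null 29 at 11.46. The endothelial sum went the other way, highest on 1C at 12.29. The part of these lists in the HoxC spread was not tested.

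**Figure D2:**
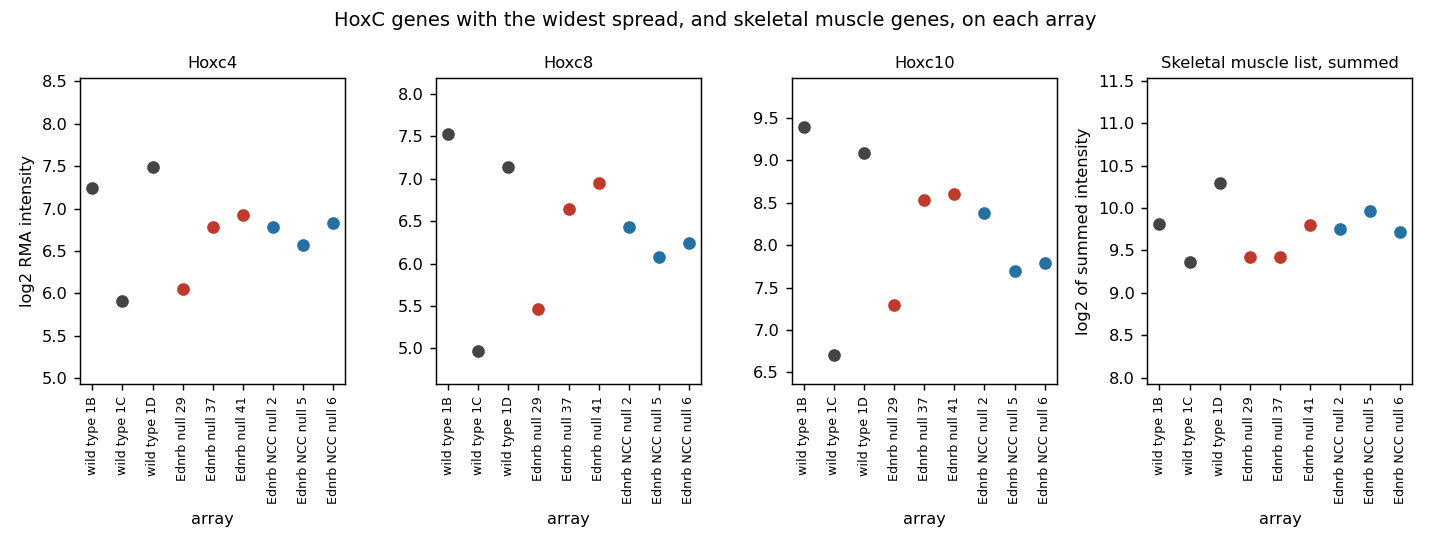
Log2 RMA intensity of Hoxc4, Hoxc8 and Hoxc10, and the log2 of the summed intensity of the skeletal muscle list, on each of the 9 arrays (wild type dark grey, Ednrb null red, Ednrb NCC null blue). Wild type 1C is lowest and Ednrb null 29 next lowest in all 3 Hox genes, and wild type 1C is also the lowest of the muscle sums.

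The first comparison asked which Hox genes differ in embryos homozygous for the Ednrb lacZ allele. Of the 33 Hox genes, 5 were called in Ednrb null against wild type hindgut, 4 lower and 1 higher, where 5.04% of all genes were called in either direction (2.39% lower, 2.65% higher). The 4 that fell, Hoxa3, Hoxa5, Hoxb5 and Hoxd3, carry the numbers 3 to 5, and the one that rose, Hoxd12, lies near the posterior end of its cluster. The median difference over the 33 genes was -0.03, against 0.04 over all genes. In 11 Hox genes, 8 lower and 3 higher, the 3 null arrays lay entirely outside the 3 wild type arrays, where 22.6% of all genes did so (8.19% lower, 14.4% higher). One of the 8, Hoxd1, was at background on every array. Among the 28 Hox genes above background in some group, 10 separated, 7 lower and 3 higher. With only these 2 groups fitted, 2 Hox genes, Hoxa5 and Hoxd3, were called.

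**Figure D3:**
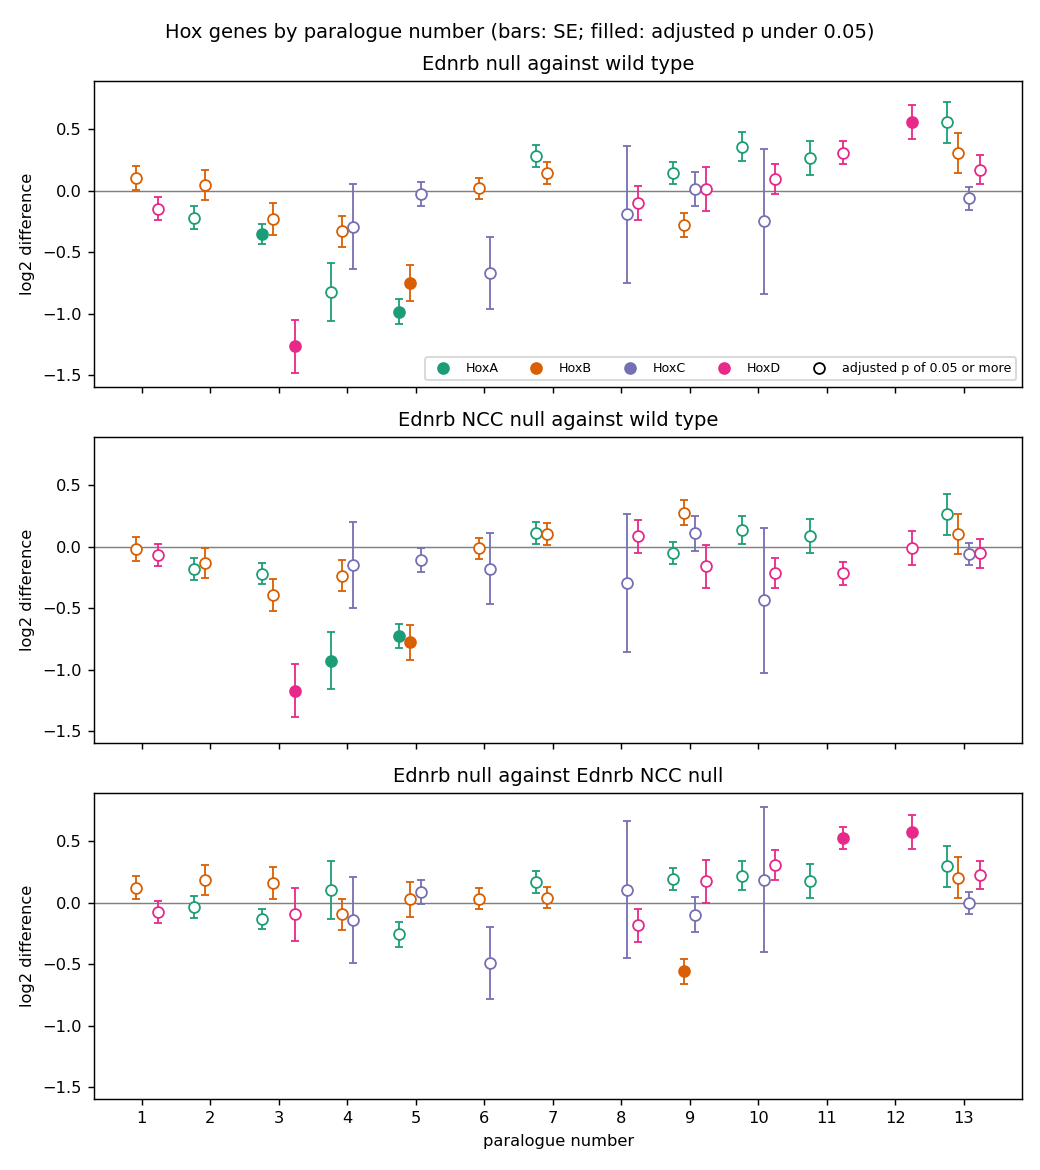
Log2 difference of each Hox gene by paralogue number in the 3 comparisons, with bars for the standard error, colours for the clusters and filled points for an adjusted p under 0.05. Filled points below the line sit at numbers 3 to 5 in both comparisons with wild type, and filled points above it are Hoxd12 in the first panel and Hoxd11 and Hoxd12 in the last.

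Hoxa5 read 9.28, 9.19 and 9.25 on wild type arrays 1B, 1C and 1D and 8.28, 8.26 and 8.23 on Ednrb null arrays 29, 37 and 41. The groups lay far apart relative to their spread. Hoxa5 was 1.98-fold lower in the null (log2 difference -0.98, SE 0.10, limma adjusted p = 0.000311). The call held in all 21 alternatives tried, with adjusted p up to 0.0305. A second, dimmer Hoxa5 probe set also fell, by 0.46 (adjusted p = 0.0480 in limma over all probe sets).

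Hoxd3, a gene of the neck skeleton and hindbrain, read 6.49, 6.80 and 7.43 in wild type and 5.44, 5.58 and 5.90 in Ednrb null hindgut. All 3 null arrays were at background. The fold between the group means is therefore a bound, with those arrays read at no less than background and without sampling error. By that bound Hoxd3 was at least 1.84-fold lower in the null (measured log2 difference -1.27, SE 0.22, limma adjusted p = 0.00664). One probe set shared by Hoxd3 and Hoxd4 fell by 0.63 (adjusted p = 0.0492 in limma over all probe sets), and another differed by -0.14 (adjusted p = 0.641).

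Hoxb5 read 7.82, 8.45 and 8.10 in wild type and 7.56, 7.21 and 7.34 in the null. The highest null array lay below the lowest wild type array. It was 1.68-fold lower in the null (log2 difference -0.75, SE 0.14, limma adjusted p = 0.0130). Without Ednrb null 37 its adjusted p in limma was 0.0569. The transcript annotated opposite to it, Hoxb5os, was lower by the same amount (log2 difference -0.75, SE 0.18, limma adjusted p = 0.0417).

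Hoxa3, used in the pharyngeal region and thymus, read 8.52, 8.62 and 8.66 in wild type and 8.23, 8.32 and 8.18 in the null. The shift was small, with no overlap. It was 1.28-fold lower in the null (log2 difference -0.35, SE 0.08, limma adjusted p = 0.0338). Its 3 other probe sets differed by -0.78, -0.16 and -0.02, of which the first was called (adjusted p = 0.00394 in limma over all probe sets). Leaving out any one of the arrays Ednrb null 29, 37 or 41, wild type 1B, 1C or 1D, or Ednrb NCC null 6 ended the Hoxa3 call, with adjusted p from 0.0502 to 0.117.

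Hoxd12, a gene of the distal limb and genital region, read 6.62, 7.09 and 6.82 in wild type and 7.59, 7.20 and 7.44 in the null. The lowest null array stood just above the highest wild type array. It was 1.47-fold higher in the null (log2 difference 0.56, SE 0.14, limma adjusted p = 0.0432). The call ended without any one of Ednrb null 29 or 41, wild type 1B or 1D, or any Ednrb NCC null array, with adjusted p from 0.0518 to 0.166.

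Further Hox genes separated the 2 groups on every array without passing the test. Hoxa2 read 6.99, 6.91 and 6.90 on the null arrays against 7.02, 7.21 and 7.24 in wild type (difference -0.22, limma adjusted p = 0.210), and Hoxb4 read 8.06, 7.89 and 8.02 against 8.07, 8.62 and 8.28 (-0.33, 0.177). Hoxa7 read 7.40, 7.23 and 7.48 against 7.16, 7.04 and 7.06 (0.28, 0.102). Hoxb9 and Hoxd11 separated as well and are described with the comparison of the mutants.

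Read by number, in ranges chosen with the values known, all 9 Hox genes numbered 3 to 5 had a negative difference in the null, with a median of -0.35, and 4 of them were called. Of the 7 genes numbered 11 to 13, 6 had a positive difference, with a median of 0.31, and 1 was called. Hoxa13 read 6.84, 6.64 and 6.71 in the null (difference from wild type 0.56, limma adjusted p = 0.0888), overlapping wild type through array 1C at 6.65. By cluster the median difference was 0.14 in HoxA, 0.02 in HoxB, -0.19 in HoxC and 0.05 in HoxD. None of the 7 HoxC genes was called in limma, and 1 had an unadjusted p under 0.05; Hoxc6, at 6.49, 6.49 and 7.82 in the null against 7.71, 7.34 and 7.77 in wild type, showed 2 null arrays well below the third.

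Hoxa4 fell between these. It read 6.07, 6.93 and 7.25 in wild type and 5.94, 5.74 and 6.10 in the null, at background on all null arrays. Its measured difference of -0.82 had a limma adjusted p of 0.0735, so it was not called. The bound on the fold between the group means, without sampling error, was 1.65. The highest null array lay just above the lowest wild type array.

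The second comparison asked the same of the mutation placed in NCC cells. Against wild type, 4 Hox genes were called in the Ednrb NCC null hindgut, all lower, where 4.96% of all genes were called (1.25% lower, 3.7% higher). They were Hoxa4, Hoxa5, Hoxb5 and Hoxd3, with numbers 3 to 5. The median difference over the 33 genes was -0.11, against 0.02 over all genes, and 24 of the 33 were negative. In 6 genes, 5 lower and 1 higher, the arrays of the groups did not overlap, where 21.9% of all genes did not (6.3% lower, 15.6% higher). Both comparisons use the same wild type arrays, so the values are given side by side and their likeness is not a result.

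Hoxa5 read 8.63, 8.63 and 8.29 on Ednrb NCC null arrays 2, 5 and 6, below all wild type arrays. It was 1.65-fold lower than wild type (log2 difference -0.73, SE 0.10, limma adjusted p = 0.00276), and the call held in all 21 alternatives, with adjusted p up to 0.0151. Its second probe set differed by -0.31 (adjusted p = 0.190 in limma over all probe sets).

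Hoxb5 read 7.34, 7.30 and 7.38 in the Ednrb NCC null, a narrow band below wild type. It was 1.72-fold lower (log2 difference -0.78, SE 0.14, limma adjusted p = 0.0130). Hoxb5os differed by -0.45 (adjusted p = 0.202), and its groups overlapped. Hoxd3 read 6.02, 5.66 and 5.52, with 1 of the 3 arrays above background, and was at least 1.91-fold lower than wild type (measured log2 difference -1.17, SE 0.22, limma adjusted p = 0.0130). The probe set shared by Hoxd3 and Hoxd4 that fell in the Ednrb null also fell here, by 0.78 (adjusted p = 0.0245 in limma over all probe sets). The calls of Hoxb5 and Hoxd3 ended without Ednrb NCC null 5 (adjusted p 0.0593 and 0.0620) and without Ednrb NCC null 6 (0.0513 and 0.0644).

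Hoxa4 read 5.87, 5.72 and 5.88 in the Ednrb NCC null, with 1 of the 3 arrays just above background. It was at least 1.75-fold lower than wild type (measured log2 difference -0.93, SE 0.23, limma adjusted p = 0.0463). The wild type values spread over 1.18, so this was the least secure of the 4 calls: it ended without any one array other than wild type 1B, with adjusted p from 0.0560 to 0.158. Its second probe set was at background. Hoxa3 lay below wild type on every array, at 8.40, 8.29 and 8.44, without being called (difference -0.22, limma adjusted p = 0.162).

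In the range chosen with the values known, all 9 genes numbered 3 to 5 were negative, with a median of -0.39 and 4 called. Hoxc5, among these 9, reached the background mark in no group. The wild type arrays are shared with the first comparison and 24 of the 33 Hox genes were negative here. The signs in this range are therefore no independent repeat. Hoxb3 read 10.27, 10.04 and 9.93 against 10.52, 10.67 and 10.23 in wild type (difference -0.39, limma adjusted p = 0.116). Among the 7 genes numbered 11 to 13 the median was -0.01, none was called in limma, and 1 had an unadjusted p under 0.05. All 7 HoxC genes were uncalled, with none at an unadjusted p under 0.05 in limma. Without wild type 1C and Ednrb null 29, an alternative added after the data were seen, 7 Hox genes were called in this comparison. Array 1C was left out because it was low in Hoxc4, Hoxc8 and Hoxc10, so the calls of those genes in that setting follow from the choice and support nothing.

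**Figure D4:**
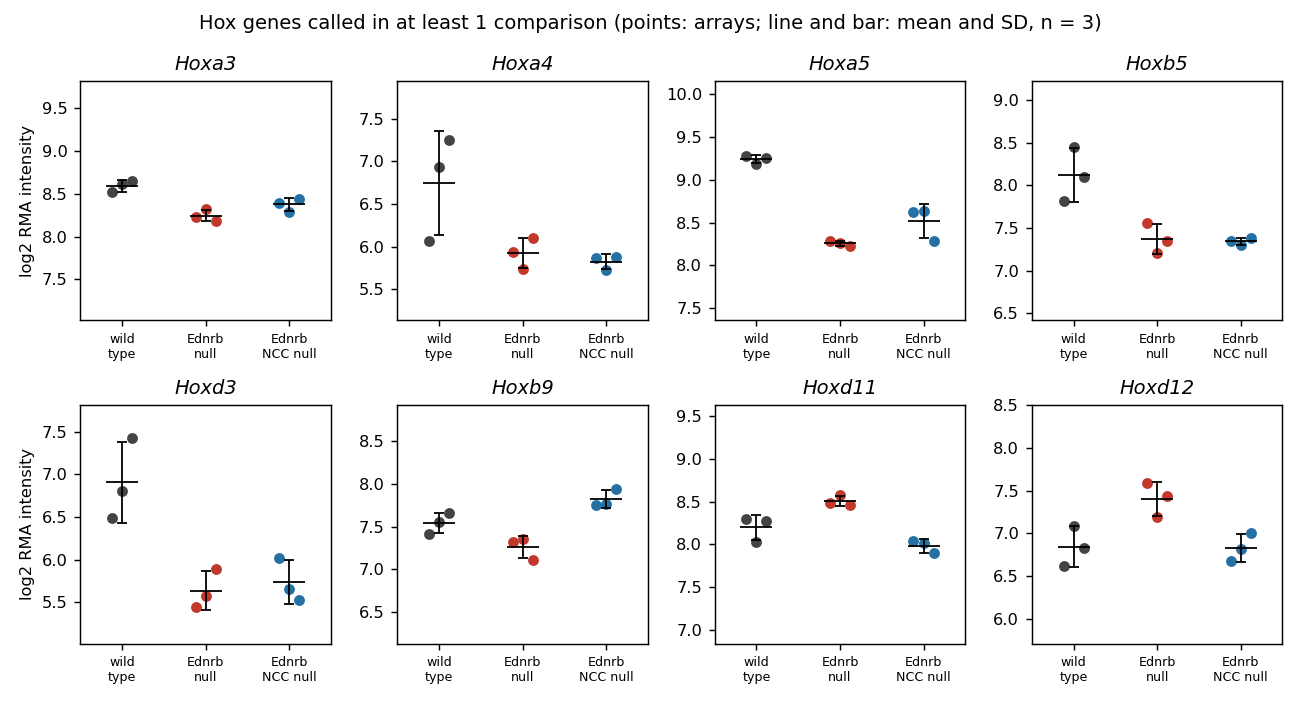
Log2 RMA intensity on every array of the 8 Hox genes called in at least 1 comparison, with the group mean and SD (n = 3). Hoxa5, Hoxb5 and Hoxd3 are lower in both mutants than in all wild type arrays, and Hoxb9, Hoxd11 and Hoxd12 separate the 2 mutants.

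Counted together, 3 genes, Hoxa5, Hoxb5 and Hoxd3, were called lower in both mutants, Hoxa3 in the Ednrb null alone and Hoxa4 in the Ednrb NCC null alone. The wild type arrays are shared and the share of all genes called lower in both is not given here. The count of 3 is therefore a description only. None of these 5 genes passed the direct test between the mutants, and 1 of the 5, Hoxa5, had an unadjusted p under 0.05. The difference was -0.26 for Hoxa5 (adjusted p = 0.170), 0.03 for Hoxb5 (0.945) and -0.10 for Hoxd3 (0.862), all in limma. It was -0.13 for Hoxa3 (0.429) and 0.10 for Hoxa4 (0.861). The Hoxa5 arrays of the null were all below those of the Ednrb NCC null, at 8.23 to 8.28 against 8.29 to 8.63.

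The third comparison set the mutants against each other. Of the 33 Hox genes, 3 were called, Hoxd11 and Hoxd12 higher and Hoxb9 lower in the Ednrb null, where 6.52% of all genes were called (2.07% higher, 4.46% lower). All lie among the posterior genes, numbers 9 to 13. The median over the 33 genes was 0.10, against 0.01 over all genes. In 7 Hox genes, 5 higher and 2 lower, the arrays did not overlap, where 24.2% of all genes did not (11.8% higher, 12.4% lower).

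Hoxd11 read 8.48, 8.58 and 8.47 in the Ednrb null and 8.04, 8.02 and 7.89 in the Ednrb NCC null, with wild type at 8.30, 8.03 and 8.28. The wild type arrays lay below all Ednrb null arrays and overlapped the Ednrb NCC null through array 1C. It was 1.44-fold higher in the null (log2 difference 0.53, SE 0.09, limma adjusted p = 0.00759). Against wild type the null differed by 0.31 (adjusted p = 0.0910), with no overlap, and the Ednrb NCC null by -0.22 (0.222). The wild type mean of 8.20 therefore stood apart from neither mutant by the test.

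Hoxd12, its neighbour in the cluster, read 6.68, 6.81 and 7.01 in the Ednrb NCC null, within the wild type range, and was 1.49-fold higher in the Ednrb null (log2 difference 0.57, SE 0.14, limma adjusted p = 0.0338). The call ended without any one of Ednrb null 29 or 41 or Ednrb NCC null 2, 5 or 6, with adjusted p from 0.0514 to 0.139. The other HoxD genes next to them were uncalled. Hoxd10 read 10.98 to 11.13 against 10.52 to 10.95 (difference 0.31, limma adjusted p = 0.188), and Hoxd13 read 12.46, 12.16 and 12.25 against 12.17, 12.04 and 11.99 (0.22, 0.333).

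Hoxb9, a gene of the trunk, went the opposite way. It read 7.32, 7.35 and 7.11 in the Ednrb null, 7.42, 7.56 and 7.65 in wild type and 7.76, 7.77 and 7.94 in the Ednrb NCC null. The 3 groups did not overlap, with the null below and the Ednrb NCC null above wild type. It was 1.47-fold lower in the null than in the Ednrb NCC null (log2 difference -0.56, SE 0.10, limma adjusted p = 0.00783). Against wild type the differences were -0.28 and 0.28, each with an adjusted p of 0.145.

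Of the 7 genes numbered 11 to 13, 6 were positive between the mutants, with a median of 0.22 and 2 called. Hoxa13 read 6.84, 6.64 and 6.71 against 6.40, 6.38 and 6.54 (difference 0.29, limma adjusted p = 0.377), and Hoxa9 10.98, 10.98 and 10.88 against 10.85, 10.73 and 10.68 (0.19, 0.252). These did not overlap. Among the 9 genes numbered 3 to 5 none was called in limma, 1 had an unadjusted p under 0.05, and the median was -0.10.

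**Figure D5:**
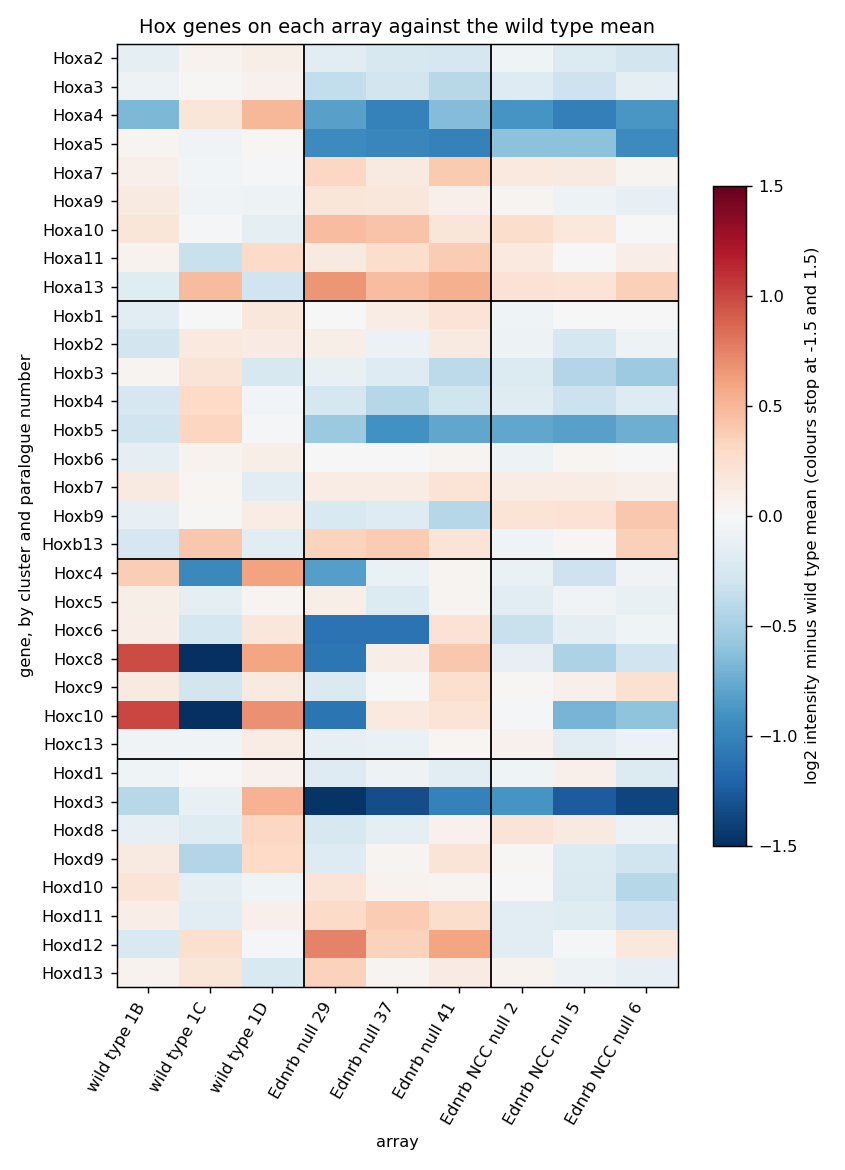
Log2 RMA intensity of the 33 Hox genes on each array minus the gene's wild type mean, in rows by cluster and paralogue number and in columns by group, with colours that stop at -1.5 and 1.5. Blue cells of both mutants gather at Hoxa4, Hoxa5, Hoxb5 and Hoxd3, and the HoxC rows differ most within groups, at wild type 1C and Ednrb null 29.

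Genes that work with or on the clusters were read from lists. HOX proteins bind DNA with TALE homeodomain partners of the PBX, MEIS and PREP families. Of 8 TALE genes measured, none was called against wild type in limma in either mutant, with 1 at an unadjusted p under 0.05 in each. Meis2 was 1.28-fold higher in the Ednrb null than in the Ednrb NCC null (12.56 against 12.20, log2 difference 0.35, SE 0.09, limma adjusted p = 0.0381). Against wild type, the median TALE difference was 0.13 in the Ednrb null, with all 8 positive, and -0.03 in the Ednrb NCC null.

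Cdx factors and retinoic acid receptors are among the regulators that act upstream of Hox genes. Of 10 genes measured in a wider list of upstream regulators, 1 was lower in the Ednrb null. In the Ednrb NCC null 1 was higher and 1 lower. Cdx1, a caudal factor of the intestinal epithelium, read 8.40, 8.55 and 8.97 in wild type, 7.38, 7.84 and 7.05 in the Ednrb null and 8.98, 9.20 and 9.52 in the Ednrb NCC null. It was 2.32-fold lower in the Ednrb null than in wild type (log2 difference -1.21, SE 0.21, limma adjusted p = 0.00664), and 3.50-fold lower than in the Ednrb NCC null (adjusted p = 0.00108). The 3 groups did not overlap.

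Cdx2, the main intestinal identity factor, rose 1.47-fold in the Ednrb NCC null (6.47 to 7.03 on average, limma adjusted p = 0.0441). Rarb, a retinoic acid receptor that is also a target of retinoic acid, read 11.05, 10.83 and 10.86 in wild type, 11.12, 11.25 and 11.19 in the Ednrb null and 10.51, 10.26 and 10.32 in the Ednrb NCC null. It was 1.46-fold lower in the Ednrb NCC null than in wild type (limma adjusted p = 0.0104) and 1.77-fold higher in the Ednrb null than in the Ednrb NCC null (0.00117).

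Polycomb proteins keep Hox genes silent and MLL complexes keep them active. Of 15 Polycomb genes, none was called against wild type in limma in either mutant (4 and 2 at an unadjusted p under 0.05). Cbx2 and Phc1, subunits of the PRC1 complex, were 1.53-fold and 1.37-fold higher in the Ednrb null than in the Ednrb NCC null (limma adjusted p = 0.0134 and 0.0146). None of 10 MLL genes was called in any comparison in limma, with 1, 3 and 2 at an unadjusted p under 0.05, and none of 5 Evx and ParaHox genes was, with 0 in each. In 5 MLL genes, 4 lower and 1 higher, the Ednrb NCC null arrays did not overlap wild type, where 21.9% of all genes did not. The Evx genes end the HoxA and HoxD clusters.

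Regional factors of gut mesoderm and endoderm were 10 measured genes. Foxf2, a mesenchymal target of hedgehog signalling, fell 1.74-fold in the Ednrb NCC null (9.24 to 8.44, limma adjusted p = 0.0194) and was 1.70-fold higher in the Ednrb null than in the Ednrb NCC null (0.0194). Nkx3-2, a visceral mesoderm factor, rose 1.45-fold in the Ednrb NCC null (6.21 to 6.75, 0.0445). None of the 10 was called in the Ednrb null against wild type in limma, with 3 at an unadjusted p under 0.05.

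The genes that flank the clusters were read as neighbours outside them. None of 24 flanking genes was called in limma in any comparison, with 3, 5 and 6 at an unadjusted p under 0.05. Of all genes, 5.04%, 4.96% and 6.52% were called, so no call among 24 is close to that share. Arrays of the groups did not overlap in 3, 8 and 8 of the 24, where 22.6%, 21.9% and 24.2% of all genes did not. The median flanking differences from wild type were 0.04 in the Ednrb null and 0.04 in the Ednrb NCC null, and -0.02 in the direct comparison of the mutants.

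Several tissue markers moved with the groups. Against wild type, 2.39% of all genes were called lower and 2.65% higher in the Ednrb null. In the Ednrb NCC null 1.25% were called lower and 3.7% higher. The summed level of 9 enteric crest genes, 8 of them above background in some group, was 12.38 to 12.83 in wild type, 11.84 to 12.06 in the Ednrb null and 12.12 to 12.45 in the Ednrb NCC null, with 6 and 4 of the 9 called lower. The Ednrb NCC null sums overlapped wild type, with array 2 at 12.45 above wild type 1B at 12.38. Of the 9 differences in that mutant, 6 were negative and 3 positive. The crest genes called lower moved with the lower Hoxa5, Hoxb5 and Hoxd3 in both mutants, and their part in that result was not tested. Summed levels of 10 neuronal genes stood at 10.47 to 11.27 in wild type and 10.17 to 10.63 in the Ednrb null, which overlapped. They stood at 10.09 to 10.25 in the Ednrb NCC null. In the Ednrb null against wild type, 2 of 6 red blood cell genes were called higher, with sums of 14.69 to 14.82 against 14.12 to 14.58. Of 11 cartilage and limb genes 2 were called higher there, with overlapping sums. Of 15 epithelial genes 1 was called lower and 13 differences were negative. Smooth muscle and gut mesenchyme had 1 of 10 called lower each. The part of these lists was not tested.

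Between the mutants, 4.46% of all genes were called lower and 2.07% higher in the Ednrb null. Of 15 gut epithelial genes 9 were called lower, with summed levels of 15.03 to 15.41 against 15.59 to 15.83 and wild type at 15.38 to 15.39. There, 3 of 10 gut mesenchyme genes were called higher, with sums of 16.10 to 16.21 against 15.83 to 16.12 and wild type at 16.16 to 16.18. Likewise 3 of 11 cartilage and limb genes, 7 of the 11 above background, were called higher, with sums of 11.61 to 11.91 against 11.37 to 11.53 and wild type at 11.44 to 11.81. In macrophage genes 4 of 9 were called lower (sums of 11.46 to 11.77 against 12.02 to 12.15), in smooth muscle genes 2 of 10 lower (15.13 to 15.47 against 15.60 to 15.82), and in red blood cell genes 2 of 6 higher (14.69 to 14.82 against 14.35 to 14.49). The gut mesenchyme sums overlapped between the mutants. Of the 11 cartilage and limb differences 6 were positive and 5 negative, and of the 6 red blood cell differences 3 and 3. The called genes of these lists differed in the same comparison as Hoxb9, Hoxd11 and Hoxd12, and their part was not tested.

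In the Ednrb NCC null against wild type, where 1.25% of all genes were called lower and 3.7% higher, 3 of the 10 gut mesenchyme genes were called lower. All 10 gut mesenchyme differences were negative. The 8 mesothelial genes, 1 of them called higher, summed to 13.37 to 13.53 in the Ednrb NCC null. In wild type the sum was 12.64 to 12.99. Its brightest member, Krt19, is also on the epithelial list and read 12.78, 12.86 and 12.92 against 12.45, 12.22 and 12.51. Wild type 1B was low in others, such as Upk3b at 6.04, against 9.76 and 9.30 on 1C and 1D. Of the 15 epithelial genes, 2 were called higher. Of 10 smooth muscle genes 1 was called higher, with sums of 15.60 to 15.82 against 15.36 to 15.53. Of 9 macrophage genes 2 were called higher, with overlapping sums. Of 6 red blood cell genes 1 was called higher, and of 11 cartilage and limb genes 1 lower. The called genes of these lists differed in the same comparison as the lower Hox genes, and their part was not tested. A sign of RNA quality, the log2 distance between the 3' and 5' Actb control probe sets, was 1.18 ± 0.13 in wild type, 0.87 ± 0.06 in the Ednrb null and 1.21 ± 0.18 in the Ednrb NCC null (SD, n = 3 each). With that distance as a covariate, 1 Hox gene, Hoxa5, was called in the Ednrb null against wild type. The differences of the 4 other genes were then -0.36 for Hoxa3, -0.90 for Hoxb5, -1.24 for Hoxd3 and 0.38 for Hoxd12, against -0.35, -0.75, -1.27 and 0.56 without it. Between the mutants none was called with it, at adjusted p in limma of 0.0851 for Hoxb9, 0.101 for Hoxd11 and 0.501 for Hoxd12 and differences of -0.68, 0.61 and 0.38.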

How the data were processed

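Intensities were deposited by the authors as a table of values on a linear scale. RMA is named in the submitters' processing notes, without a version or parameters. Their log2 was taken with no pseudocount. Of 45101 probe sets, 34945 named 1 gene, 932 named several, 9160 were unnamed here and 64 were array controls; the last 3 kinds were left out. The brightest probe set of each gene, by its mean over all arrays, stood for it. Groups were compared with limma 3.58.1 in R 4.3.3 (lmFit and eBayes, a mean per group over all 9 arrays, 2-sided, Benjamini-Hochberg over 18193 genes, adjusted p under 0.05), which was checked on simulated data. Arrays have no read depth, so their number limits the precision. The Hox genes called in a comparison are printed on all arrays, then those above background whose groups do not overlap. List genes are named only when called, at most 4 per list and comparison. Krt19 and Upk3b are named apart from that rule, for their part in the mesothelial sum, and Hand2 for its part in the crest sum. The Hox genes and the lists were chosen with earlier results of these data known. Alternatives changed the scaling, the filter on dim genes, the groups fitted, the eBayes settings, the probe set rule, the threshold, an Actb covariate and the arrays included.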

Additional observations from a re-analysis of the deposited data

Results flagged for a closer look

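Of the 33 Hox genes, 3 differed between the 2 mutations by a direct test of the mutants against each other in limma. It is also the test of whether their differences from wild type differ. Of all genes, 6.52% were called in it. Hoxb9 was lower in the Ednrb null by -0.56 on the log2 scale (adjusted p = 0.00783), with the Ednrb null below and the Ednrb NCC null above wild type on every array. Hoxd11 was higher in the Ednrb null by 0.53 (adjusted p = 0.00759), and Hoxd12 by 0.57 (adjusted p = 0.0338). In Hoxd12 all 3 Ednrb null arrays lay above all 6 other arrays, and in Hoxd11 likewise. With the Actb distance as a covariate none of the 3 genes was called. The adjusted p in limma was then 0.0851 for Hoxb9, 0.101 for Hoxd11 and 0.501 for Hoxd12. The Hoxd12 call also ended without any one of Ednrb null 29 or 41 or Ednrb NCC null 2, 5 or 6.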

How the results depend on the processing

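In Ednrb null against wild type, 5 Hox genes were called in limma. The count was 3 with the dimmest 40% of genes left out, which took Hoxa4, Hoxd3 and Hoxd12 out of the test, 2 with only the 2 groups fitted, 8 at an adjusted p under 0.10, 3 with a change of at least 1.5-fold required and 1 with the Actb distance as a covariate. Leaving out each array in turn gave 3 to 6. In Ednrb NCC null against wild type, 4 were called, 2 with the dimmest 40% left out, and 1 to 4 with each array left out, the lowest without Ednrb NCC null 5 or 6. Without wild type 1C and Ednrb null 29 together, which was chosen after seeing the data, the counts were 4, 7 and 2 in the 3 comparisons. Between the mutants 3 were called, 0 with at least 1.5-fold required, 0 with the Actb covariate, and 2 to 3 with each array left out. For the counts not explained by a dropped gene or a stricter threshold, the cause was not tested. The count of Hox genes above background in wild type was 24 to 27 under its alternatives. Of 247 checks of the 12 called differences, 191 kept the call, 56 lost it and 0 reversed. Scaling moved the median of all genes by less than 0.1. No paired analysis was possible because the groups share no replicate numbers. Levels near the olfactory receptor background, as in Hoxa4 and Hoxd3, limit what could be measured.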

Other observations

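The transcript annotated opposite to Hoxa11, Hoxa11os, read higher than wild type on every array of both mutants, by 0.23 in the Ednrb null (adjusted p = 0.330 in limma) and 0.32 in the Ednrb NCC null (0.165), and was not called. Hoxd3os1 differed from wild type by -0.13 and -0.25 (adjusted p = 0.530 and 0.203 in limma). Hoxb6 was nearly level, with 7.74 ± 0.13 in wild type, 7.76 ± 0.02 in the Ednrb null and 7.72 ± 0.05 in the Ednrb NCC null (SD, n = 3 each).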
